A study of Mus musculus with 6 samples.

Results

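The genes described here encode the proteins of the mitochondrial ribosome. They were taken by name: every protein-coding mouse gene whose symbol begins with Mrpl (large subunit) or Mrps (small subunit), without pseudogenes marked -ps. The rule used no measured value and found 78 genes among the 54532 in the files, 49 Mrpl and 29 Mrps.

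The mitochondrial ribosome translates the few messenger RNAs of the mitochondrial genome, all of which encode subunits of the respiratory chain and the ATP synthase. Its ribosomal RNAs are transcribed inside the organelle, whereas its proteins are encoded in the nucleus, made in the cytosol and imported. Some of these proteins descend from those of the bacterial ribosome and others were added in the mitochondrial lineage. Macrophages activated by IL-4 are known for their reliance on mitochondrial respiration.

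The cells were immortalised macrophages derived from mouse bone marrow, lines grown from cultured marrow cells after infection with retroviruses that carry v-raf and v-myc. Poly(A) RNA was sequenced in 2 groups of 3 libraries, 1 group wild type (WT) and the other labelled 4-1BBL KO, a knockout of a TNF family ligand, and called KO-labelled below. All 6 had received IL-4, the cytokine of alternative macrophage activation, at 10 ng/ml for 24 hours, and both groups carry v-raf and v-myc. The marrow came from mice with or without 4-1BBL. The nature of the deletion is not stated in the labels, nor how many animals or lines gave each group or whether libraries of a group were separate cultures, so p-values measure only the spread between libraries, which may be technical. Values are FPKM, fragments per kilobase of exon scaled to the library's total, listed for libraries 1 to 3 of each group in that order.

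The groups differed widely outside these genes, and every comparison below is between cell lines that differ in this way. Depth was 20.7 to 22.3 M (mega) assigned fragments in WT and 19.1 to 26.4 M in KO-labelled libraries. Tnfsf9, the gene of 4-1BBL, was at 14.6, 10.4 and 12.05 FPKM in WT and at 10.7, 10.7 and 11.4 FPKM in KO-labelled libraries, so its transcript does not separate the groups (exact two-sided permutation p = 0.4, where 0.1 is the smallest possible). The Y-linked gene Ddx3y had 0, 1 and 0 fragments in the WT libraries and 9.92 to 12.1 FPKM in the KO-labelled ones. All 10 macrophage markers had a mean of at least 1 FPKM, with summed levels of 2017 to 2058 FPKM in WT and 1445 to 1475 FPKM in KO-labelled libraries, but Adgre1 was at 11.3 to 12.5 FPKM in WT against 261 to 273 FPKM, and Mertk at 0.0216, 0 and 0 against 4.13 to 4.42 FPKM. Of 26 markers of T cells, B cells, neutrophils, dendritic cells, fibroblasts and epithelium, 1 reached that level (Lck). The part of these differences in the results below was not tested.

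Mitochondrial ribosomal protein genes were expressed almost without exception, and 77 of the 78 reached the mean of 1 FPKM required for testing. Changes were small. In KO-labelled cells 11 genes were higher, 29 were lower and 37 did not pass an adjusted p of 0.05 (limma, Benjamini-Hochberg over all 10843 genes tested). Thus 51.9% of the members passed, where 60.8% of all tested genes did. The direction was uneven, with 14.3% of members higher against 30.6% of all genes, and 37.7% lower against 30.2%. The share of higher calls depends on scaling: it was 27.5% of the members' calls with FPKM (11 of 40), and with each library rescaled to the same total (TPM) 21 members were higher and 21 lower. With TPM 61.0% of all tested genes passed, 36.6% higher and 24.4% lower.

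The median log2 fold change of the members, KO-labelled minus WT on the log2(FPKM + 1) scale, was -0.09, against 0.01 for all tested genes. Rescaling to TPM moved the median of the members to -0.01 and that of all genes to 0.10, so the distance between them stayed at about the same value, -0.10 on both scales. The median size of change, without its sign, was 0.22 for the members and 0.32 for all genes. Among 7133 tested genes with mean levels inside the members' own range of 4.39 to 92.0 FPKM the median size was 0.30, and 63.5% passed. A single member, Mrps6, passed and changed 2-fold or more on this scale, as 13.5% of all tested genes did. For 14 members every KO-labelled library was above every WT library, for 33 every one was below, and for 30 the groups overlapped. Over all tested genes the groups were apart for 67.4%, with 34.1% higher and 33.4% lower.

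**Figure D1:**
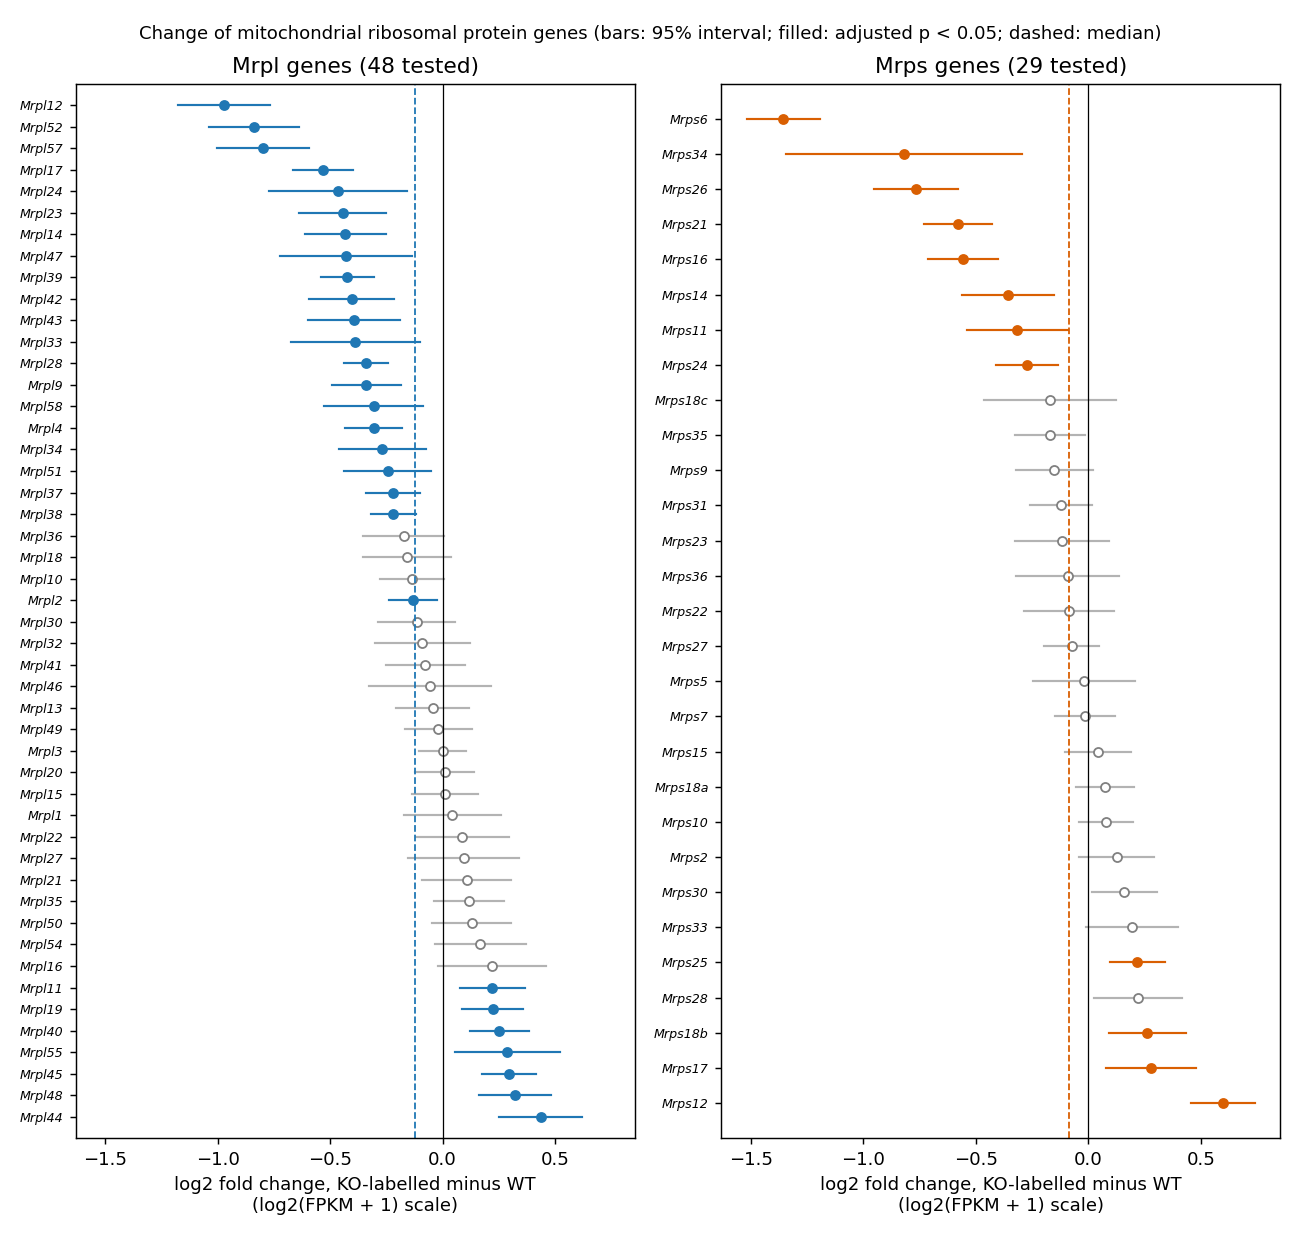
Log2 fold change (KO-labelled minus WT, log2(FPKM + 1) scale, x axis) of each tested Mrpl gene on the left and each Mrps gene on the right, with 95% intervals. Filled points passed an adjusted p of 0.05, and dashed lines mark the medians of -0.12 and -0.09. Most points lie within 0.5 of 0, and Mrps6 and Mrpl12 lie farthest to the left.

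The difference between the subunits was not tested. Of 48 tested large subunit genes, 7 rose, 21 fell and 20 did not pass, and of 29 small subunit genes 4 rose, 8 fell and 17 did not pass. Thus 58.3% of the large and 41.4% of the small subunit genes passed, against 60.8% of all tested genes. Higher calls were 25% of the calls in the large subunit, 33.3% in the small and 50.4% over all tested genes. With TPM 11 were higher and 14 lower in the large subunit, and 10 higher and 7 lower in the small. Higher calls were then 44% and 58.8% of the calls, against 60.0% over all tested genes, so the small subunit was close to that share. Median log2 fold changes were -0.12 for the large and -0.09 for the small subunit, a gap of -0.04 that changed sign under quantile normalization (0.01). With TPM the medians were -0.03 and 0.0022. Relative to the median of all genes on the same scale, they were -0.13 on both scales for the large subunit and -0.09 on both for the small.

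Gene names do not always tell the subunit. Mrps30 and Mrps18a encode proteins that structures of the ribosome place in the large subunit, Mrps36 encodes a protein now assigned to the oxoglutarate dehydrogenase complex, and 5 further proteins have other names. With the genes sorted by structure, 7 of 51 in the large subunit rose and 21 fell, and 6 of 30 in the small subunit rose and 9 fell, with medians of -0.09 and -0.08. Thus 54.9% and 50% passed, against 60.8% of all tested genes. The shares higher were 13.7% and 20%, against 30.6%, and the shares lower 41.2% and 30%, against 30.2%.

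**Figure D2:**
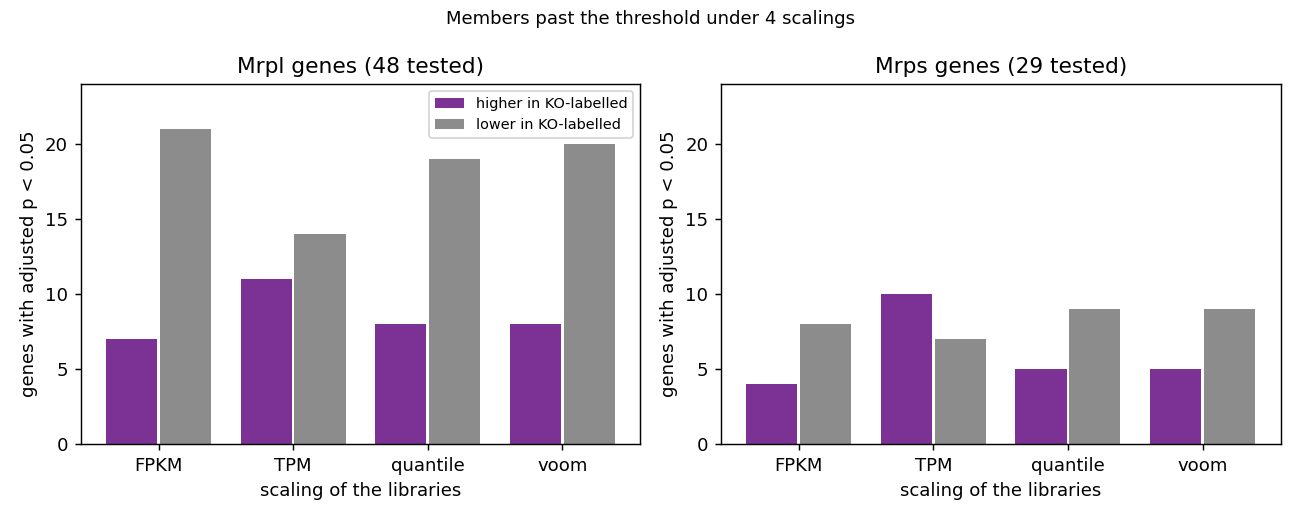
Number of Mrpl genes (left, 48 tested) and Mrps genes (right, 29 tested) with an adjusted p under 0.05 that were higher or lower in KO-labelled libraries, under 4 scalings of the libraries. With FPKM the counts are 7 and 21 for Mrpl and 4 and 8 for Mrps, and with TPM they are 11 and 14, and 10 and 7.

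Summed over its genes, the large subunit amounted to 1412, 1446 and 1429 FPKM in WT and to 1282, 1282 and 1258 FPKM in KO-labelled libraries, a difference of -10.8% between the means of 1429 ± 17.0 and 1274 ± 13.9 (SD, n = 3). The small subunit amounted to 636, 661 and 653 FPKM in WT and to 575, 570.3 and 564 FPKM in KO-labelled libraries, a difference of -12.3% between 650.0 ± 12.7 and 570.0 ± 5.31. For both subunits every WT library was above every KO-labelled one. The median level over a subunit's genes did not separate the groups, with 22.6 ± 0.919 and 22.4 ± 1.52 FPKM for the large and 17.1 ± 0.434 and 16.03 ± 1.30 FPKM for the small subunit. The sum of FPKM over all genes of a library itself differed by -6.34% between KO-labelled and WT libraries, and in TPM the subunits differed by -4.77% and -6.36%, again with no overlap. In bulk RNA, fewer cells of a kind and less RNA per cell cannot be told apart.

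Levels per exon length spread widely within each subunit. In WT, the 48 detected large subunit genes ranged from 5.10 FPKM (Mrpl33) to 101 FPKM (Mrpl34), with a median of 23.2. Small subunit genes ranged from 6.22 FPKM (Mrps35) to 81.1 FPKM (Mrps21), with a median of 18.0. The order of levels was largely shared by the groups. Across the 77 tested genes, which share libraries and are not independent, the mean log2 levels of WT and KO-labelled cells correlated with r = 0.94 (Spearman's rho = 0.93). The log2 fold change correlated weakly with mean log2 level (r = -0.13, rho = -0.10) and with exon length (r = 0.10, rho = 0.05).

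**Figure D3:**
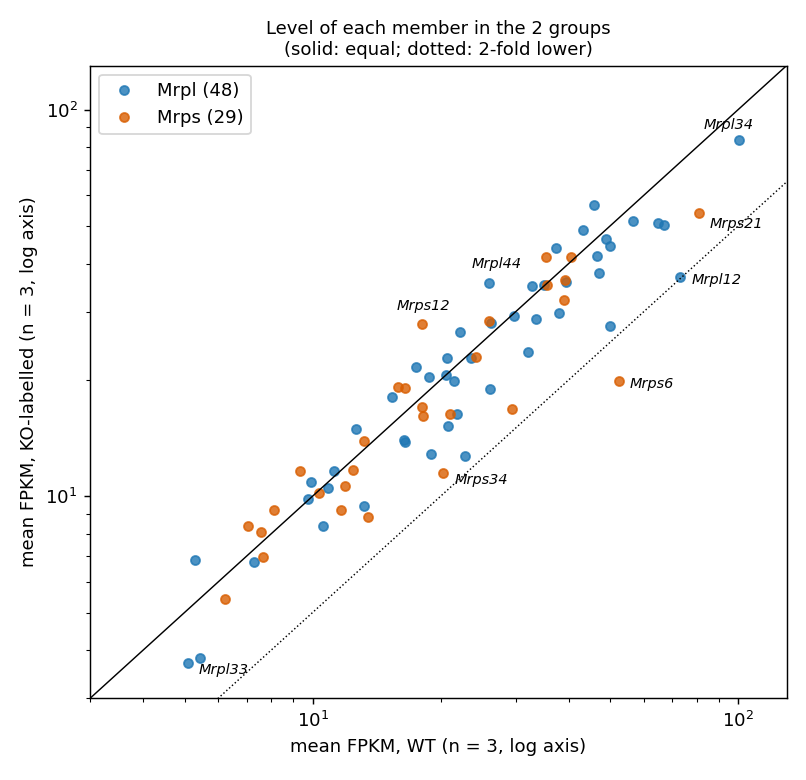
Mean FPKM (n = 3) of each tested member in WT (x axis) and KO-labelled libraries (y axis), both on log axes. The solid line marks equal levels and the dotted line 2-fold lower levels. Most genes lie close to the solid line, Mrps6 lies below the dotted one and Mrpl12 close to it.

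Promoter sequence was examined because genes for mitochondrial ribosomal proteins are known for short promoters with sites for NRF1, ETS-family factors (GABP among them), YY1 and CCAAT-binding factors. RefSeq promoter windows of 300 bases (250 before to 50 after the start, GRCm38.p6) were found for 69 of the 78 members, 75 windows in all. On either strand, ETS (CCGGAAG) was found in 34.7% of the members' windows, 19.8% of those of tested genes and 8.86% of all 32851 windows. YY1 (AAGATGGC) was found in 16.0%, 5.05% and 2.75%, and NRF1 (GCGCA and GCGC with 1 base of any kind between) in 17.3%, 11.1% and 4.60%. The other motifs were closer to the background, with CCAAT in 40.0%, 38.1% and 37.4% and the E-box bound by Myc and its relatives (CACGTG) in 9.33%, 10.5% and 7.15%. The 5 motifs were searched separately and none contains another.

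Some genes have several overlapping windows, so calls are set beside motifs by gene. Of 26 members with a window that fell, 8 held NRF1, 11 ETS, 4 YY1, 8 CCAAT and 2 the E-box in a window. Of 10 that rose, 2 held NRF1, 3 ETS, 1 YY1, 4 CCAAT and 0 the E-box, and of 32 that did not pass, 3 held NRF1, 11 ETS, 7 YY1, 14 CCAAT and 3 the E-box. Of all 7960 tested genes with a window, 1043 held NRF1, 1835 ETS, 487 YY1, 3453 CCAAT and 992 the E-box. Whether motifs go with the calls was not tested. A match describes the letters and does not show a bound site. Stretches of 4 windows, from 160 bases before the start to the first annotated exon base, are shown for the most changed members on each side whose stretch holds a match (Mrpl12 and Mrpl52, which fell, and Mrps12, which rose) and for Mrpl3, the member with the smallest change. Mrpl12 is at chr11:120484477-120484612 (plus strand), Mrpl52 at chr14:54426749-54426908 (plus), Mrps12 at chr7:28741822-28741981 (minus) and Mrpl3 at chr9:105053108-105053238 (plus). Each is written 5′ to 3′ on the gene's strand, and capitals mark the match on either strand: NRF1 in Mrpl12, ETS in Mrpl52, CCAAT at 4 places in Mrps12 and at 1 in Mrpl3. The rest of these windows, not printed, holds another ETS match in Mrpl52, 1 ETS and 1 YY1 match in Mrps12, and 2 CCAAT and 1 ETS match in Mrpl3.
Mrpl12: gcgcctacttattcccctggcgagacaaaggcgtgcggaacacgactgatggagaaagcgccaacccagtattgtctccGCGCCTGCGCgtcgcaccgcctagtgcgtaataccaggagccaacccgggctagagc
Mrpl52: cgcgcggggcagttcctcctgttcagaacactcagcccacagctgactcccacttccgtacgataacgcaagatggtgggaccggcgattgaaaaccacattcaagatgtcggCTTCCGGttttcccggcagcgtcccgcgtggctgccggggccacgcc
Mrps12: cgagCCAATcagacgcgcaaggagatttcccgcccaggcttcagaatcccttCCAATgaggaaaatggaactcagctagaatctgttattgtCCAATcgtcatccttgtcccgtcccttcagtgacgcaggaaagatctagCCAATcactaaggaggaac
Mrpl3: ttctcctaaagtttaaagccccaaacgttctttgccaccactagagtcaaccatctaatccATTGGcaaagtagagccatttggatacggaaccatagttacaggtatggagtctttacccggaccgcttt

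The largest decrease was that of Mrps6, which encodes a small subunit protein with a bacterial counterpart (ENSMUSG00000039680, chromosome 16, 92058270 to 92112227, mm10). Its level was 49.6, 56.2 and 51.6 FPKM in WT and 19.5, 18.8 and 21.4 FPKM in KO-labelled libraries. The KO-labelled libraries lay close together and far below the lowest WT library. The log2 fold change was -1.36 ± 0.069 (SE, 95% interval -1.52 to -1.19, adjusted p = 4.32e-06 by limma), a ratio of mean FPKM of 2.64. Mrps6 shares its start region with Slc5a3, a myo-inositol transporter gene that begins at 92058322 on the same strand and was singled out after its values were seen. Slc5a3 was at 11.9, 13.0 and 13.0 FPKM in WT and at 1.77, 1.75 and 2.38 FPKM in KO-labelled libraries, a log2 fold change of -2.21. Other annotated genes overlap 19.9% of the exon length of Mrps6, all on its own strand.

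Mrpl12 encodes the protein of the ribosome's flexible stalk, which recruits translation factors (ENSMUSG00000039640, chromosome 11, 120484613 to 120489065). It was the third most abundant member in WT, at 66.9, 78.3 and 74.3 FPKM, and was at 39.7, 38.1 and 32.9 FPKM in KO-labelled libraries. The groups were far apart, with a log2 fold change of -0.97 ± 0.086 (95% interval -1.18 to -0.77, adjusted p = 7.39e-05 by limma). Its ratio of means was 1.98. Of the other tested genes of the stalk and its base, Mrpl10 was at 39.1, 40.0 and 39.1 FPKM in WT and lower in each KO-labelled library, at 35.9, 38.5 and 33.0 FPKM, without passing (adjusted p = 0.0905 by limma, or 0.0335 without KO-labelled library 2). Mrpl54 was at 43.1 ± 1.36 and 48.8 ± 5.74 FPKM (SD, n = 3), and Mrpl11 rose from 15.4 ± 1.04 to 18.1 ± 0.580 FPKM. The call of Mrpl11 (adjusted p = 0.0176 by limma) was lost without WT library 2 (0.0515).

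Mrpl53, the fifth gene of that region of the ribosome, had 0 fragments in all 6 libraries, where a floor of 3 fragments corresponds to 0.144 to 0.198 FPKM. Its exon length is overlapped to 88.0% by Gm42688 on the same strand, and fragments from shared exons may not have been counted to it. The value therefore does not show whether the gene was transcribed.

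Mrpl52 and Mrpl57 encode large subunit proteins without a bacterial counterpart. Mrpl52 was at 46.6, 52.0 and 51.4 FPKM in WT and at 31.0, 26.7 and 25.2 FPKM in KO-labelled libraries (log2 fold change -0.84 ± 0.084, adjusted p = 0.00014 by limma). Mrpl57 was at 21.01, 23.6 and 23.8 FPKM in WT and at 14.1, 12.7 and 11.4 FPKM in KO-labelled libraries (log2 fold change -0.80 ± 0.086, adjusted p = 0.000197 by limma). For both genes the lowest WT library was about 1.5 times the highest KO-labelled one. Mrpl52 belongs to the central protuberance, the crown of the large subunit, where 3 of 9 tested genes rose, 3 fell and 3 did not pass (66.7% passed, against 60.8% of all tested genes).

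A pair of small subunit genes without a bacterial counterpart fell. Mrps26 was at 27.6, 33.3 and 27.6 FPKM in WT and at 17.2, 16.7 and 16.7 FPKM in KO-labelled libraries (log2 fold change -0.77 ± 0.078, adjusted p = 0.00015 by limma). Mrps34, whose protein is needed for stability of the small subunit's ribosomal RNA, was at 22.0, 18.9 and 19.998 FPKM in WT and at 12.9, 14.3 and 7.22 FPKM in KO-labelled libraries (log2 fold change -0.82 ± 0.22, adjusted p = 0.0157 by limma). Mrps34 is the less certain of the pair. KO-labelled library 3 was far below the others and without it the log2 fold change was -0.54, the adjusted p ran from 0.000711 with voom to 0.0551 without WT library 1, and 77.8% of its exon length overlaps other genes, mainly Mapk8ip3.

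Mrps21 and Mrps16, which have bacterial counterparts, completed the 8 largest decreases. Mrps21, the second most abundant member in WT, was at 77.1, 83.3 and 82.8 FPKM in WT and at 54.7, 49.7 and 57.6 FPKM in KO-labelled libraries (log2 fold change -0.58 ± 0.064, adjusted p = 0.000224 by limma). Mrps16 was at 13.0, 12.9 and 14.5 FPKM in WT and at 8.49, 8.64 and 9.34 FPKM in KO-labelled libraries (log2 fold change -0.56 ± 0.065, adjusted p = 0.000307 by limma). In each of these genes the groups did not overlap.

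Increases were fewer and smaller. Mrps12 encodes the small subunit protein at the decoding centre, the counterpart of the bacterial protein in which streptomycin resistance arises (ENSMUSG00000045948, chromosome 7, 28739641 to 28741820). It was at 18.4, 16.9 and 19.0 FPKM in WT and at 28.5, 26.4 and 28.7 FPKM in KO-labelled libraries. All KO-labelled libraries were above all WT libraries, with a log2 fold change of 0.60 ± 0.060 (95% interval 0.45 to 0.74, adjusted p = 0.000142 by limma). Sars2, the mitochondrial seryl-tRNA synthetase gene that starts 172 bases away on the other strand, had a log2 fold change of -0.05 (adjusted p = 0.687 by limma).

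Mrpl44, whose protein has the fold of a double-strand-specific RNase, was at 25.9, 27.0 and 25.2 FPKM in WT and at 37.5, 38.03 and 31.5 FPKM in KO-labelled libraries (log2 fold change 0.44 ± 0.078, adjusted p = 0.00242 by limma). Mrpl45, whose protein anchors the ribosome at the inner membrane beside the exit tunnel, was at 47.6, 45.5 and 44.5 FPKM in WT and at 53.6, 57.2 and 58.7 FPKM in KO-labelled libraries (log2 fold change 0.29 ± 0.051, adjusted p = 0.00206 by limma). Mrpl48, of the central protuberance, was at 5.05, 5.06 and 5.75 FPKM in WT and at 6.58, 6.98 and 6.96 FPKM in KO-labelled libraries (log2 fold change 0.32 ± 0.068, adjusted p = 0.0054 by limma). The groups were apart in all of these, by less than in the largest decreases. Mrpl48 has a near-identical processed pseudogene, Mrpl48-ps, listed at 7.88, 7.28 and 11.3 FPKM in WT and at 1.19, 3.11 and 1.32 FPKM in KO-labelled libraries, so how fragments were divided between the pair is uncertain.

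**Figure D4:**
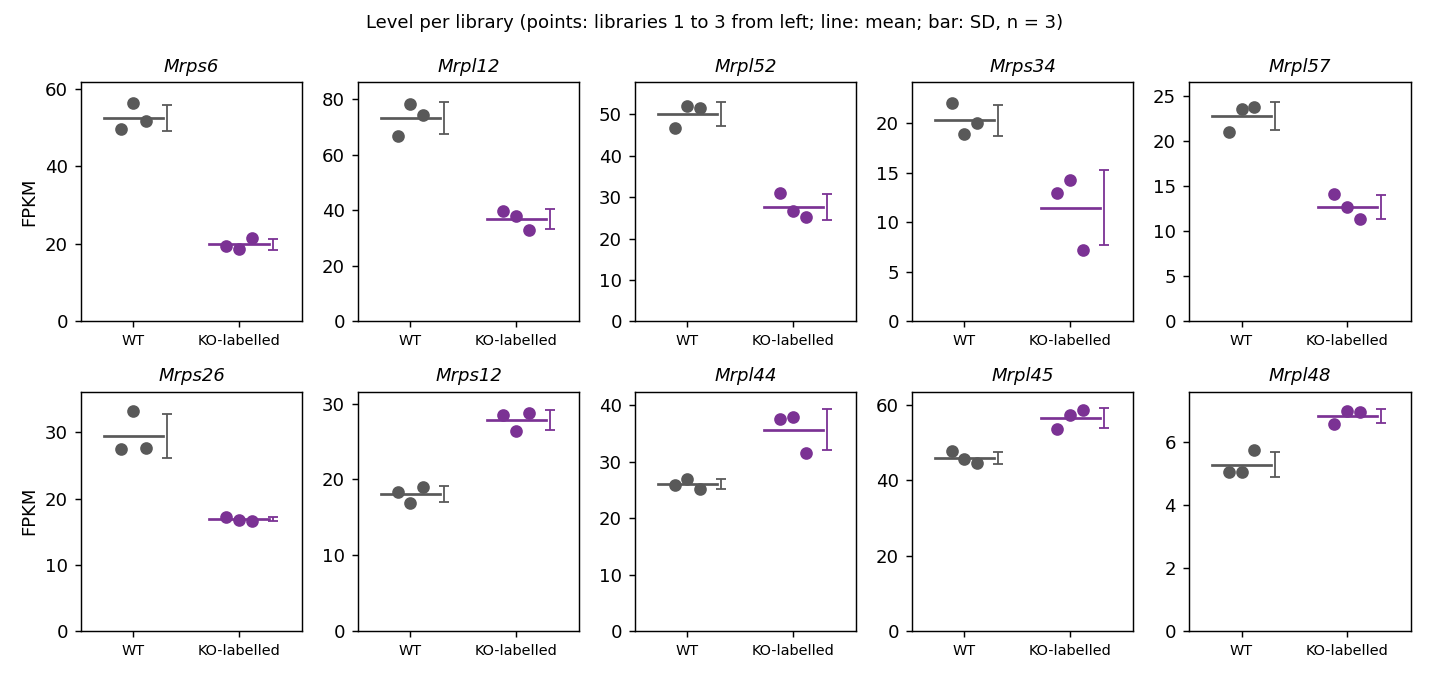
FPKM per library (y axis, from 0) of the 6 largest decreases and the 4 largest increases, with the 3 libraries of a group as points, the mean as a line and the SD as a bar (n = 3). The groups do not overlap in any panel, and KO-labelled library 3 of Mrps34, at 7.22 FPKM, lies apart from the other 2.

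At the rim of the exit tunnel, where the new chain leaves the large subunit, Mrpl45 was the only gene of 5 that rose. Of the 5 genes 80% passed, against 60.8% of all tested genes, with 20% higher against 30.6% and 60% lower against 30.2%. Mrpl22 did not pass, with 26.2 ± 2.12 and 27.98 ± 2.71 FPKM (SD, n = 3). The other 3 fell: Mrpl23 from 13.2 ± 1.22 to 9.45 ± 0.656 FPKM, Mrpl24 from 26.2 ± 0.630 to 18.9 ± 3.90 FPKM and Mrpl47 from 5.43 ± 0.527 to 3.81 ± 0.750 FPKM. The call of Mrpl24 (adjusted p = 0.0178 by limma) was lost without WT library 1 (0.0529), WT library 3 (0.0552) or KO-labelled library 2 (0.0556). That of Mrpl47 (0.0202) was lost without any of these (0.0598, 0.0692 and 0.0647) or KO-labelled library 1 (0.0567). It was also lost with TPM (0.0525) and without the level filter (0.0505).

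Among the 3 most abundant genes of each subunit, 4 fell (Mrps21 above among them) and 2 did not pass. Over all tested genes 60.8% passed and 30.2% were lower. Mrpl34, the member with the highest level, was at 90.8, 109 and 102 FPKM in WT and at 83.1, 77.3 and 89.6 FPKM in KO-labelled libraries. Its groups nearly touch, with a log2 fold change of -0.27 ± 0.081 (adjusted p = 0.0248 by limma), a call that many alternatives lost. The adjusted p was 0.0964 with TPM, 0.148 under quantile normalization and 0.0548 without the level filter, and 0.0574 to 0.0817 without WT library 2, WT library 3, KO-labelled library 1 or KO-labelled library 2. Mrpl43 was at 68.1, 74.4 and 58.2 FPKM in WT and at 50.6, 49.4 and 51.2 FPKM in KO-labelled libraries (log2 fold change -0.39 ± 0.086, adjusted p = 0.00625 by limma), and 33.4% of its exon length overlaps Twnk, the gene of the mitochondrial DNA helicase. Mrpl28 was at 62.6, 65.8 and 65.7 FPKM in WT and at 50.2, 52.0 and 50.5 FPKM in KO-labelled libraries (log2 fold change -0.34 ± 0.041, adjusted p = 0.000356 by limma), a small difference between tight groups. Mrps15 (40.5 ± 2.91 and 41.7 ± 1.55 FPKM) and Mrps28 (35.3 ± 1.67 and 41.5 ± 4.50 FPKM, adjusted p = 0.0509 by limma) did not pass, though Mrps28 passed with TPM (adjusted p = 0.0104).

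Some members stayed at nearly the same mean. Mrpl3, an early-binding protein near the catalytic centre, was at 20.7, 20.2 and 20.98 FPKM in WT and at 20.3, 20.4 and 21.2 FPKM in KO-labelled libraries. Its log2 fold change was 0.00066 with a 95% interval of -0.10 to 0.10. Mrpl20 and Mrpl15, also of the large subunit, each had a log2 fold change of 0.01, with intervals from -0.12 to 0.14 and from -0.14 to 0.16. These intervals bound the differences, and do not show that the genes were equal.

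Of the 3 Mrps18 paralogs, which descend from 1 bacterial protein and occupy different sites, 1 passed. Mrps18b rose from 15.8 ± 0.984 to 19.2 ± 1.46 FPKM (log2 fold change 0.26 ± 0.072, adjusted p = 0.0166 by limma), a call lost without WT library 1 (0.0589), WT library 3 (0.0565) or KO-labelled library 2 (0.0563). Mrps18a was at 13.2 ± 0.516 and 13.9 ± 0.577 FPKM (log2 fold change 0.07 ± 0.054, adjusted p = 0.288 by limma). Mrps18c was at 18.2 ± 1.51 and 16.1 ± 2.74 FPKM (log2 fold change -0.17 ± 0.12, adjusted p = 0.266 by limma). The difference between paralogs was not tested. Mrps18b has a near-identical pseudogene, Gm13552, listed at 2.58 to 10.2 FPKM, so the division of fragments is uncertain. Other genes overlap 30.5% of the exon length of Mrps18b and 23.2% of that of Mrps18c.

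Mrps30 was at 8.13 ± 0.261 and 9.21 ± 0.563 FPKM (adjusted p = 0.0575 by limma), and Mrps36 at 18.0 ± 0.730 and 17.0 ± 2.36 FPKM (adjusted p = 0.443 by limma). Neither passed. Mrpl58, whose protein frees stalled chains as a peptidyl-tRNA hydrolase and is also built into the ribosome, fell from 10.6 ± 0.516 to 8.38 ± 1.09 FPKM (log2 fold change -0.31 ± 0.093, adjusted p = 0.0247 by limma). That call was lost with TPM (adjusted p = 0.085), without the level filter (0.0521) and without WT library 1 (0.0757) or 2 (0.0745).

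By evolutionary origin, of 30 large subunit genes with a bacterial counterpart 3 rose and 12 fell, with a median log2 fold change of -0.12. Of 18 tested without one 4 rose and 9 fell, with a median of -0.15. In the small subunit 2 of 16 with a counterpart rose and 6 fell (median -0.09), and 2 of 10 without one listed rose and 2 fell (median -0.10). Mrps18b, which rose, was counted among those 10, although it descends from the same bacterial protein as the other Mrps18 genes. The split of the small subunit by origin is therefore approximate. The genes with a counterpart passed in 50% of cases in both subunits. Those with none listed passed in 72.2% of cases in the large subunit and in 40.0% in the small. Over all tested genes 60.8% passed, 30.6% higher and 30.2% lower.

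The mitochondrial ribosomal proteins with other names moved in both directions. Dap3, a GTP-binding protein of the small subunit's head, fell from 20.5 ± 0.667 to 15.2 ± 0.634 FPKM (log2 fold change -0.41 ± 0.052, adjusted p = 0.000457 by limma). Aurkaip1 rose from 39.3 ± 1.13 to 45.0 ± 2.19 FPKM and Chchd1 from 63.7 ± 0.775 to 72.9 ± 3.07 FPKM, both of the small subunit, and the call of Aurkaip1 was lost without WT library 2 or KO-labelled library 2 (adjusted p = 0.0515 and 0.0505). Ptcd3, an RNA-binding protein of the small subunit, was at 20.1 ± 1.15 and 19.0 ± 1.17 FPKM. Gadd45gip1, of the large subunit, was at 13.8, 15.2 and 12.8 FPKM in WT and at 27.5, 21.7 and 13.3 FPKM in KO-labelled libraries (adjusted p = 0.103 by limma). KO-labelled library 3 lay within the WT range there, and without it the adjusted p was 0.00182.

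The machinery around the ribosome showed no single direction. For the shares below, 60.8% of all tested genes passed, 30.6% higher and 30.2% lower. Of 16 translation factors and related genes 4 rose, 5 fell and 7 did not pass, so that 56.2% passed. Oxa1l, the insertase that receives new chains at the inner membrane, fell from 19.3 ± 1.90 to 13.6 ± 0.0794 FPKM (log2 fold change -0.47, adjusted p = 0.00126 by limma), while the RNA-binding gene Slirp did not pass (1.44 ± 0.642 and 0.724 ± 0.230 FPKM), with 97.8% of its exon length overlapped. Of 20 aminoacyl-tRNA synthetases and subunits of the glutamyl-tRNA amidotransferase 2 rose, 8 fell and 10 did not pass (50% passed). That amidotransferase was split: Gatb fell from 18.6 ± 0.628 to 10.4 ± 0.983 FPKM and Gatc rose from 13.9 ± 0.866 to 21.4 ± 1.79 FPKM (adjusted p = 9.12e-05 and 0.000493 by limma).

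Of 25 genes of ribosome assembly and rRNA modification 2 rose, 7 fell and 16 did not pass, so that 36.0% passed, against 60.8% of all tested genes. Mettl17, a factor bound to the maturing small subunit, was at 5.36, 5.82 and 5.98 FPKM in WT and at 2.40, 3.40 and 2.71 FPKM in KO-labelled libraries (log2 fold change -0.82, adjusted p = 0.000521 by limma). Gtpbp10, a GTPase of large subunit assembly, had 0 fragments in the WT libraries and was at 5.80, 5.84 and 5.25 FPKM in KO-labelled libraries, at least 275-fold higher against a floor of 3 fragments per library. Its processed pseudogene Gm6877 was likewise at 0 in WT, and at 5.13, 5.86 and 10.0 FPKM in KO-labelled libraries, so the division of fragments within the pair is uncertain.

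Genes of mitochondrial DNA transcription and replication gave 2 calls among 10 tested (20%), both higher. The largest changes in that list did not pass: Mterf1b was at 2.38 ± 0.939 and 1.23 ± 0.317 FPKM and Polg2 at 1.72 ± 0.286 and 1.17 ± 0.268 FPKM. Of 11 tested regulators of nuclear genes for mitochondria 1 rose, 4 fell and 6 did not pass (45.5% passed). The 2 largest were Mycn, which fell from 283, 283 and 275 FPKM to 0.0115, 0.0154 and 0.0634 FPKM, and Myc, which fell from 13.8, 12.8 and 10.2 FPKM to 0.851, 1.55 and 0.904 FPKM. The coactivator Ppargc1b fell from 5.19 ± 0.377 to 2.57 ± 0.383 FPKM and Gabpb2 from 9.53 ± 0.231 to 8.15 ± 0.614 FPKM, while Pprc1 rose from 18.6 ± 0.874 to 21.1 ± 0.954 FPKM. The other regulators tested, Nrf1, Gabpa, Gabpb1, Esrra, Yy1 and Max, did not pass.

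The ribosome also contains and reads RNAs of the mitochondrial genome. Of the messenger RNAs of the mitochondrial genome 12 were tested, of which 8 fell and 4 did not pass (66.7% passed, against 60.8% of all tested genes), and the sum of the messenger RNAs was 5472, 5170.1 and 5102 FPKM in WT and 3893, 4286 and 4464 FPKM in KO-labelled libraries, with no overlap. The largest changes were those of mt-Atp6, which fell from 11.9 ± 1.57 to 6.10 ± 0.579 FPKM, and of mt-Cytb, which fell from 734 ± 27.2 to 431 ± 33.2 FPKM. Near-identical copies exist for mt-Atp6, mt-Nd2, mt-Nd3, mt-Nd4, mt-Nd4l, mt-Nd5, mt-Co1, mt-Co2 and mt-Co3. The highest copies of mt-Atp6, mt-Co2 and mt-Nd3 had means of 12.2, 19.0 and 19.9 FPKM. How fragments were divided is uncertain, which limits the sum and the calls of these genes. The small subunit's rRNA, mt-Rnr1, was at 228, 213 and 206 FPKM in WT and at 144, 150 and 153 FPKM in KO-labelled libraries (log2 fold change -0.53, adjusted p = 0.000103 by limma). The large subunit's rRNA, mt-Rnr2, was at 73.1, 64.8 and 59.7 FPKM in WT and at 57.4, 50.1 and 66.9 FPKM in KO-labelled libraries, and its groups overlapped. These libraries were made from poly(A) RNA, so the rRNA values need not follow rRNA amounts.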

How the data were processed

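Poly(A)-selected RNA of 6 libraries was measured. The authors deposited FPKM per Ensembl gene and library. The submitters' processing notes name HISAT2 2.0.5, the counter featureCounts 1.5.0-p3 and mm10. Not given in the sources used here are the annotation release, the strand setting and the handling of multiply mapped reads. Symbols, positions and exon overlaps came from GENCODE M21 (54495 of 54532 identifiers matched).

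Genes averaging 1 FPKM or more entered limma 3.58.1 (R 4.3.3), fitted to log2(FPKM + 1) with a trend of variance on level, a scale that understates changes of low genes, with Benjamini-Hochberg adjustment over all of them. The step was tested on simulated data. Fragment numbers, used for depth, floors and voom, were recovered from FPKM and exon length, and about 98% of low values were whole within 0.1. Floors cover counting error only. Replicate numbers did not pair the libraries. Alternatives were another pseudocount, other level filters, TPM, quantile normalization, voom, a replicate block, leaving out each library, and leaving out members with near-identical copies (BLAST+ 2.17.0+, at least 95% identity over 80% of the shorter transcript and 150 bases) or, added after seeing the data, with over 10% exon overlap.

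The members and lists were chosen with earlier results of these data known. Named genes were, among members past the threshold whose groups did not overlap, the 4 largest increases and 8 largest decreases, the 3 highest per subunit, the 3 nearest no change, untested members, the Mrps18 genes, Mrps30, Mrps36, Mrpl12, Mrps12, Mrpl58, mitoribosomal proteins with other names, Tnfsf9 and the 2 largest changes of each pathway list. Genes of the stalk and exit tunnel, Slc5a3, Sars2, pseudogenes, rRNAs, markers and the other regulators were named outside that rule.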

Additional observations from a re-analysis of the deposited data

How the results depend on the processing

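Of the 11 members that rose and the 29 that fell, 7 and 19 had the same call in all 13 alternative fits, and no member was called in both directions. Rescaling to TPM raised the number of higher members from 11 to 21, moved the large subunit's median log2 fold change to -0.0332 and turned the small subunit's to 0.00220. The gap between the subunit medians, -0.04, was 0.0120 under quantile normalization and 0.00879 without members overlapped over more than 10% of their exons. In fits that left out 1 library, 29 to 45 of the 77 tested members passed, 8 to 14 higher and 21 to 31 lower. Those fits tested 10797 to 10858 genes in all, with 2890 to 3160 higher and 2825 to 3248 lower. With all 6 libraries 3321 of 10843 genes were higher and 3273 lower. Without 1 library the medians ran from -0.150 to -0.0858 (large) and from -0.100 to -0.0329 (small), and the Tnfsf9 difference from -2.39 to -0.313 FPKM. TPM multiplies all values of a library by a single factor, and library sums of FPKM differed by -6.34% between KO-labelled and WT libraries. What else lay behind these shifts was not tested, and the fits without 1 library also had less data. No library number marks a shared culture or day, and deviations of same-numbered libraries correlated by -0.034, 0.047 and -0.032, so the replicate block is only an alternative. With it 37 of the 77 tested members passed, 10 higher and 27 lower, and over all 10843 tested genes 3119 were higher and 3075 lower.

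Genes near no change switched sign. Mrpl3 was at -0.0201 under quantile normalization and -0.00282 with voom, Mrpl15 at -0.0128 under quantile normalization and Ptcd3 at 0.0113 with TPM. Leaving out single libraries gave -0.0179 to 0.0124 for Mrpl3, -0.0277 to 0.0536 for Mrpl15, -0.0289 to 0.0451 for Mrpl20, -0.00013 to 0.0971 for Mrps15 and -0.182 to 0.00841 for Mrps36. Of 552 values of single genes under alternatives, 509 kept direction and call, 17 lost the call, 14 gained it and 12 changed sign. Leaving out 19 members with near-identical copies, 58 were tested, with 8 higher and 24 lower. Without the 18 overlapped ones, 60 were tested, with 8 higher and 21 lower. With 3 libraries a group, small changes can be missed.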

Other observations

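Some processed pseudogenes of members had levels as high as those of the members themselves. AC154457.3, a near-identical copy of Mrps10, was listed at 21.2, 22.4 and 16.8 FPKM in WT and at 0.465, 0.802 and 0.733 FPKM in KO-labelled libraries, while Mrps10 was at 7.58 ± 0.151 and 8.07 ± 0.151 FPKM (SD, n = 3). Gm5776, a copy of Mrps33, was at 15.9, 15.6 and 16.4 FPKM in WT and at 16.4, 18.8 and 25.1 FPKM in KO-labelled libraries, close to the 16.5 ± 1.12 and 19.1 ± 2.01 FPKM of Mrps33. How fragments were divided between a gene and its copy is not given in the sources used here. These pseudogenes were picked after their values were seen.

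Members often lie head to head with another protein-coding gene. For 18 of 78 (23.1%) such a gene started on the other strand within 1000 bases upstream, against 1144 of 9693 tested protein-coding genes (11.8%). In 15 of the 18 pairs the neighbour was tested. Both genes passed in the same direction in 1 pair, Mrpl2 with Klc4 (log2 fold changes of -0.13 and -0.63), and in opposite directions in 1 pair, Mrpl51 (-0.24) with Ncapd2 (0.22). Neither member's call was firm. The limma adjusted p of Mrpl2, 0.0389, was 0.545 with TPM, 0.669 under quantile normalization, 0.0933 with the replicate block, 0.075 with voom and 0.0585 to 0.11 without any one of the 3 WT libraries or KO-labelled library 1 or 2. That of Mrpl51, 0.035, was 0.13 with TPM, 0.0657 without the level filter and 0.0682 to 0.108 without any one of the WT libraries or KO-labelled library 2 or 3. Mrpl57, which fell by 0.80 on the log2 scale, had as its neighbour Ska3 with -0.08 (limma adjusted p = 0.6).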
